A study of Homo sapiens with 9 samples.

Results

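The genes described here are 10 of the NF-kB pathway: the inhibitor genes NFKBIA, NFKBIE and TNFAIP3, the feedback gene BIRC3, the subunit genes NFKB1, NFKB2, REL, RELA and RELB, and the target gene ICAM1. They were taken by symbol from a deposited table of 61093 genes, and all 10 were among the 17492 genes that entered the tests (a normalized count of at least 10 in at least 3 of 9 libraries). RNA-seq libraries of cells labelled HepG2, a human liver cancer line, were compared across 3 groups of 3 libraries. These were cells given 2-APB, which the series' text names as the agonist, cells given SKF-96365, which it names as the inhibitor, and control cells, for which no treatment is named. The channel meant is TRPV2, a calcium-permeable cation channel. No dose, time, vehicle or passage is given in the labels, all 9 libraries share 1 cell line, and nothing says that libraries of a group came from separate cultures, so p-values measure only the spread between these samples, which may be technical. Reads counted over the listed genes came to 14786059 to 19026545 per library.

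NF-kB proteins are dimers of Rel-family subunits that inhibitor (IkB) proteins hold in the cytoplasm. Cytokines, microbial products and other signals activate kinases that mark the inhibitor for destruction, and the freed dimer enters the nucleus and binds its sites in promoters. Among the genes it induces are those of its own inhibitors, of ubiquitin-editing brakes and of several of its subunits, so their transcripts are often read as a trace of the pathway's activity. In liver cells the pathway serves inflammation and survival.

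Markers and libraries were checked before the members were read. Of 12 hepatocyte markers, 10 had a mean under 10 normalized counts, among them ALB (albumin) at 4.24, AFP at 4.07 and HNF4A at 1.21, while the keratin gene KRT8 averaged 79420.5 and the filament gene VIM 31329, so the defining liver transcripts were near 0 in cells labelled HepG2. Leukocyte genes, whose cells are rich in NF-kB transcripts, summed to 318 to 380.4 with 2-APB, 298 to 333 with SKF-96365 and 264 to 402 in control. Of 8 such genes 3 entered the tests: CD74 with a mean of 259, CD14 at 51.6 and ITGAM at 15.5. The defining PTPRC and CD3E had means of 1.43 and 0. Endothelial genes summed to 13.7 to 31.6, 12.3 to 29.7 and 16.8 to 107 in the same groups, the highest being control 3, with PECAM1 at a mean of 0.336, and the part of these markers in the members' values was not tested. Libraries did not sort by label. Across tested genes the Pearson r of control 3 was 0.988 with SKF-96365 2 and 0.986 with SKF-96365 3, but 0.961 with control 1 and 0.957 with control 2. That of SKF-96365 1 was 0.988 with 2-APB 3 and 0.984 with control 1, but 0.972 with SKF-96365 2 and 0.971 with SKF-96365 3. That of 2-APB 3 was 0.986 with control 1, but 0.980 with 2-APB 1 and 0.981 with 2-APB 2. On recovered reads the chi-square per degree of freedom was 2.11 between 2-APB 1 and 2, 3.55 between SKF-96365 2 and control 3, 7.21 between 2-APB 3 and SKF-96365 1, 8.003 between 2-APB 3 and control 1, and 16.8 to 59.2 between other pairs of a group, where counting error alone gives about 1.

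The promoters of the 3 members that varied most between libraries, TNFAIP3, ICAM1 and BIRC3, are shown because NF-kB acts through such sites, together with that of NFKBIA, which was added after its values were seen. Each run is the 250 bases before the start that RefSeq gives on GRCh38.p14, 5′ to 3′ on the gene's strand, with matches to GGANNTNCC on either strand in capitals. They lie at chr6:137867009-137867258 (plus strand) for TNFAIP3, chr19:10270870-10271119 (plus) for ICAM1, chr11:102317234-102317483 (plus) for BIRC3 and chr14:35404750-35404999 (minus) for NFKBIA. GENCODE 29, on GRCh38, places the genes at chr6:137867188-137883312 (TNFAIP3, ENSG00000118503), chr19:10270835-10286615 (ICAM1, ENSG00000090339), chr11:102317450-102339403 (BIRC3, ENSG00000023445) and chr14:35401511-35404749 (NFKBIA, ENSG00000100906). By those bounds the NFKBIA window lies just before the gene, the ICAM1 window inside it, and the TNFAIP3 and BIRC3 windows span the gene's start. The build of the authors' own annotation is not given in the sources used here.
TNFAIP3: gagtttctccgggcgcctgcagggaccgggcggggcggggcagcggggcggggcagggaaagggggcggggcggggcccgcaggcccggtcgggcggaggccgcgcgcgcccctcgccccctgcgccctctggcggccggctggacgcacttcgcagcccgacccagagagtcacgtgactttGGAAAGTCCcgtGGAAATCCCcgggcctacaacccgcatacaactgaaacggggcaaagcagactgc
ICAM1: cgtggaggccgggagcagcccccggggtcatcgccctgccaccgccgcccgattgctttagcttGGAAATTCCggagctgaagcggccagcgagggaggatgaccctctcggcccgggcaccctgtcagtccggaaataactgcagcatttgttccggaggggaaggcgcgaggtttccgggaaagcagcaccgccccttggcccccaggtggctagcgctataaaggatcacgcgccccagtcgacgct
BIRC3: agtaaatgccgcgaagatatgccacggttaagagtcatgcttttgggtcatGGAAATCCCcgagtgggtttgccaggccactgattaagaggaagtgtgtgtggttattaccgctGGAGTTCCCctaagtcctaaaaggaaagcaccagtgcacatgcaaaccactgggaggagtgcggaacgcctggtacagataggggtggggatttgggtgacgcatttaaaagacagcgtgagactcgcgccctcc
NFKBIA: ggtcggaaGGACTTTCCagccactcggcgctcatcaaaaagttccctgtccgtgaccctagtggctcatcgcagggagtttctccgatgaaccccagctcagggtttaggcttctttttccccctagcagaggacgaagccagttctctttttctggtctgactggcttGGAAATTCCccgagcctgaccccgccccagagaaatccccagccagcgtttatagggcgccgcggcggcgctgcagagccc
The stricter letters GGANNTTCC, read on both strands, were in 1350 of 35116 such windows in the RefSeq table (3.84%), and the looser GGANNTNCC, which includes the stricter matches, in 13.5%. NFKBIA held 2 stricter matches, starting 242 and 81 bases before its start, ICAM1 held 1 at 186 bases, and TNFAIP3 held 1 at 67 bases on the minus strand and a looser one at 55. BIRC3 held looser matches only, at 199 and 135 bases. The table had 12 windows for 8 of the 10 members (several starts for some), of which 6 windows from 6 members held the stricter letters, those of NFKBIA, ICAM1, TNFAIP3, NFKB1, NFKB2 and REL. RELA held no match in its windows, and NFKBIE and RELB had no entry. A match to these letters is a description of the sequence and not evidence of binding.

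Values below are normalized counts, that is reads divided by 1 size factor per library. NFKBIA encodes IkB alpha, the inhibitor that NF-kB rapidly induces to end its own signal. It had 870.4, 805 and 957 normalized counts in 2-APB 1 to 3, 1054, 1493 and 1397 in SKF-96365 1 to 3, and 841, 673 and 1466 in control 1 to 3. Every 2-APB library was below every SKF-96365 library. Control 1 and control 2 lay with or below 2-APB, while control 3 lay between SKF-96365 3 and SKF-96365 2, so control overlapped both treatments. NFKBIE, which encodes the slower inhibitor IkB epsilon, had 387, 458 and 485 with 2-APB, 512, 372 and 369 with SKF-96365, and 481, 409.8 and 410.1 in control. Here all groups overlapped, and SKF-96365 held both the highest library and the 2 lowest.

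TNFAIP3 encodes a ubiquitin-editing enzyme that shuts off signalling upstream of the inhibitor kinases. It had 145, 123 and 219.9 normalized counts in 2-APB 1 to 3, 411, 343 and 345 in SKF-96365 1 to 3, and 152, 154 and 406 in control 1 to 3. All SKF-96365 libraries and control 3 stood above every other library, with 2-APB 3 the nearest below them. Counting error was small against this gap: the exact Poisson 95% interval was 367 to 448 for control 3, 128 to 178 for control 1 and 104 to 145 for 2-APB 2, and it covers counting error only. BIRC3, an inhibitor-of-apoptosis ubiquitin ligase that NF-kB induces and that limits the alternative NF-kB route, had 1821, 1918 and 3849 with 2-APB, 4496, 2969 and 3096 with SKF-96365, and 2447, 2079 and 3012 in control. Its highest libraries were SKF-96365 1 and 2-APB 3, and 2-APB 3 lay above 2 of the 3 SKF-96365 libraries, which no other inhibitor or feedback gene except NFKBIE showed.

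The subunit genes varied less. NFKB1 encodes a precursor that is cut to a DNA-binding subunit and pairs most often with RELA. It had 846, 801 and 917 normalized counts with 2-APB, 995, 729.8 and 688 with SKF-96365, and 1113, 1037 and 702 in control. SKF-96365 2, SKF-96365 3 and control 3 were its 3 lowest libraries, the same 3 that were highest for NFKBIA and ICAM1. NFKB2, which encodes the precursor of the alternative route, had 1906, 1936 and 2356 with 2-APB, 2372, 2011 and 2038 with SKF-96365, and 2024, 1899.9 and 2031 in control. All 3 groups overlapped, and the highest library was only 1.25 times the lowest.

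RELA, the main transactivating subunit, had 1151, 1165 and 1477 normalized counts with 2-APB, 1443, 1246 and 1275 with SKF-96365, and 1264, 1451 and 1311 in control. Its lowest and highest libraries were both 2-APB, and the groups overlapped. RELB, the partner of the processed NFKB2 product, had 202, 221 and 296 with 2-APB, 291, 297 and 303 with SKF-96365, and 244, 179 and 304 in control. The SKF-96365 libraries lay close together, and 2-APB 3 and control 3 reached their level. REL, a subunit best known from lymphocytes, had 171, 229 and 151 with 2-APB, 169, 260.1 and 255 with SKF-96365, and 189, 166 and 223 in control. It was highest in SKF-96365 2 and 3, but SKF-96365 1 lay below 2 of the 3 control libraries.

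ICAM1 encodes the adhesion molecule that leukocyte integrins bind and is a standard NF-kB target. It had 383, 374 and 420.1 normalized counts in 2-APB 1 to 3, 534, 873 and 847 in SKF-96365 1 to 3, and 318, 339.8 and 800.4 in control 1 to 3. Every 2-APB library was below every SKF-96365 library, as for NFKBIA and TNFAIP3, and control 1 and 2 were lower than all 2-APB libraries while control 3 was inside the SKF-96365 range. The antisense gene AC011511.5 covers 21.99% of the ICAM1 exon bases in GENCODE 29, but its own mean was 1.45. The members' levels by library are in the plot of normalized counts, and the plot of centred levels sets them side by side.

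**Figure D1:**
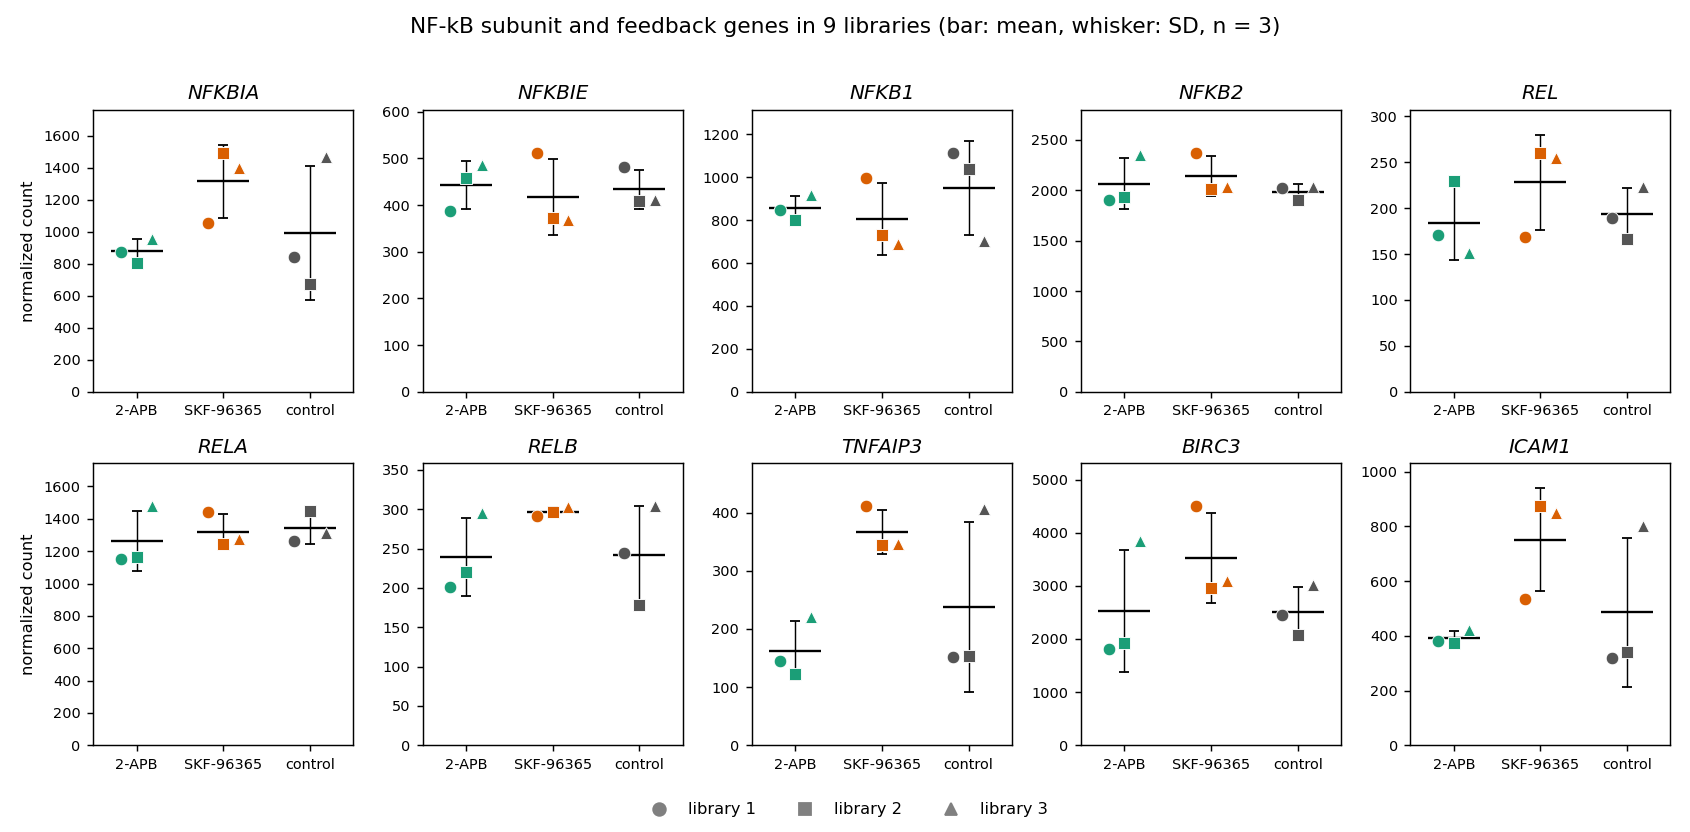
Normalized counts (vertical axes, from 0, a scale per gene) of the 10 genes in 2-APB, SKF-96365 and control libraries (horizontal axes); symbols are libraries 1 to 3, bars are means and whiskers SD (n = 3). For TNFAIP3, ICAM1 and NFKBIA every 2-APB library lies below every SKF-96365 library, and control 3 lies with SKF-96365.

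Variation differed between the members. The SD of log2(normalized count + 1) over the 9 libraries was 0.71 for TNFAIP3, 0.59 for ICAM1, 0.45 for BIRC3 and 0.42 for NFKBIA, which exceeded that of 98.1%, 96.4%, 91.2% and 89.1% of the 10942 genes with a mean of at least 100. It was 0.29 for REL and RELB, 0.25 for NFKB1, 0.18 for NFKBIE, 0.13 for RELA and 0.12 for NFKB2, the last above only 13.3% of those genes. The highest library was 3.34 times the lowest for TNFAIP3, 2.75 times for ICAM1, 2.47 times for BIRC3 and 2.22 times for NFKBIA, and at most 1.72 times for the subunits and NFKBIE. The inhibitor, feedback and target genes other than NFKBIE were thus the variable ones. Over the 10 genes together the root mean square log2 difference was 0.0499 between SKF-96365 2 and 3, and 0.114 and 0.123 between control 3 and these libraries, against 0.718 and 0.782 between control 3 and control 1 and 2. SKF-96365 1 was 0.456 and 0.436 from SKF-96365 2 and 3, and 2-APB 3 was 0.473 and 0.508 from 2-APB 1 and 2 but 0.323 from SKF-96365 1.

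**Figure D2:**
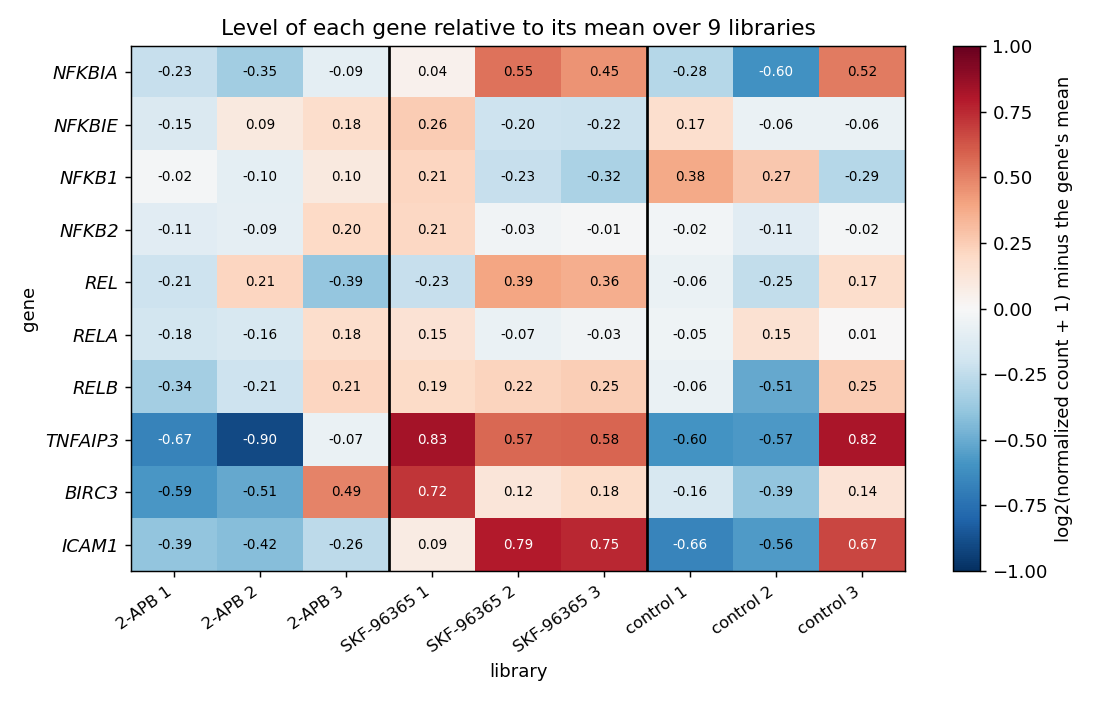
Level of each gene (rows) in each library (columns) as log2(normalized count + 1) minus the gene's mean over the 9 libraries; red is above and blue below the mean, and vertical lines divide 2-APB, SKF-96365 and control. TNFAIP3, ICAM1, NFKBIA, BIRC3 and RELB are above their means in all SKF-96365 libraries and in control 3. In control 3 they are at 0.82, 0.67, 0.52, 0.14 and 0.25, while NFKB1 there is at -0.29.

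The transcripts of the inhibitor gene NFKBIA and the subunit gene NFKB1 did not keep a fixed proportion. NFKBIA over NFKB1, as a ratio of normalized counts, was 1.03, 1.00 and 1.04 in 2-APB 1 to 3, 1.06, 2.05 and 2.03 in SKF-96365 1 to 3, and 0.755, 0.649 and 2.09 in control 1 to 3. As followed from NFKB1 being lowest and NFKBIA highest there, the 3 libraries above 2 were SKF-96365 2, SKF-96365 3 and control 3. In that order NFKB1 lay at -0.23, -0.32 and -0.29 log2 units from its mean, but RELA at -0.07, -0.03 and 0.01. Only the ratio to NFKB1 was taken. The ratio has no gene length in it, so its change between libraries can be read but its size cannot be read as molecules.

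Levels between genes were compared per length, as mean normalized counts per kilobase of exon in GENCODE 29. NFKB2 was highest at 460.2, followed by NFKBIA at 447, BIRC3 at 379.6, RELA at 239.6, NFKBIE at 167, ICAM1 at 147, NFKB1 at 139, RELB at 85.5, TNFAIP3 at 50.6 and REL at 15.3. Between neighbours in this order the ranges over libraries were apart only for RELA above NFKBIE, NFKB1 above RELB and TNFAIP3 above REL. NFKB2 exceeded NFKBIA in 6 of 9 libraries, and ICAM1 exceeded NFKB1 in 3 of 9. In the annotation the gene AC010733.2 covers 43.3% of the REL exon bases on the same strand and was listed at 0, and how the authors' counting treated those shared bases is not given in the sources used here.

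2-APB against SKF-96365 sets the agonist against the inhibitor. TNFAIP3 averaged 162 ± 50.9 normalized counts with 2-APB and 366 ± 38.3 with SKF-96365, ICAM1 392 ± 24.3 and 751 ± 189, and NFKBIA 878 ± 76.6 and 1315 ± 230.4 (SD, n = 3 each). These 3 genes, an upstream brake, a target and the main inhibitor, had the largest differences of the 10 on the log2 scale, and BIRC3, at 2529 ± 1144 with 2-APB and 3520.3 ± 847 with SKF-96365, came next. None of the 10 passed the test. In bulk libraries fewer cells that express a gene and less RNA per cell cannot be told apart.

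The test was limma with an intensity trend on log2(normalized count + 1) over all 17492 genes, with Benjamini-Hochberg adjustment and a threshold of 0.05. It called 0 of the 10 genes between 2-APB and SKF-96365, as it called 0% of all genes, with a smallest adjusted p of 0.684 over the table. On the 8 libraries without SKF-96365 3, edgeR called 0 and DESeq2 1 of all genes, 0 of them members. At an unadjusted limma p under 0.05 stood 3 of the 10, where 7.3% of all genes did. All 3 were lower with 2-APB, where 4.09% of all genes were so. For TNFAIP3 the log2 fold change was -1.21 (95% interval -2.0 to -0.42, limma adjusted p = 0.684). It was -0.90 for ICAM1 (-1.62 to -0.19) and -0.57 for NFKBIA (-1.13 to -0.01), both with the same adjusted p in limma. Without 2-APB 3 these were -1.45 for TNFAIP3, -0.95 for ICAM1 and -0.64 for NFKBIA, BIRC3 then passed NFKBIA at -0.89, and 0 members were called. The same 3 genes had groups that did not overlap, against 17% of all genes, with 2-APB the lower group, against 8.79%. The other members ran from -0.54 for BIRC3, -0.33 for RELB and -0.30 for REL to 0.10 for NFKB1 and NFKBIE, so 2 of 10 were above 0 against 51% of all genes, and their median was -0.32 against 0.0073 for all genes. The intervals of NFKB2 (-0.32 to 0.21) and RELA (-0.36 to 0.22) exclude a change of 1 log2 unit in either direction, whereas that of BIRC3 (-1.16 to 0.08) does not.

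The next comparison was SKF-96365 against control, the inhibitor against no named treatment. On the log2 scale TNFAIP3 and ICAM1 differed most, followed by BIRC3 and NFKBIA. TNFAIP3 averaged 366 ± 38.3 normalized counts with SKF-96365 and 237 ± 146 in control, ICAM1 751 ± 189 and 486 ± 273, BIRC3 3520.3 ± 847 and 2513 ± 469.6, and NFKBIA 1315 ± 230.4 and 993 ± 418 (SD, n = 3 each). The SD within control exceeded the difference of the means for TNFAIP3, ICAM1 and NFKBIA, but not for BIRC3. No member passed limma's test, and 0% of all genes did. Without SKF-96365 3, edgeR called 0 and DESeq2 2 genes, 0 of them members. At an unadjusted limma p under 0.05 stood 1 of 10, against 4% of all genes. This was ICAM1, higher with SKF-96365, as were 2.06% of all genes. The groups overlapped for all 10 genes, and did not for 6.2% of all genes.

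The log2 fold changes were 0.78 for TNFAIP3 (95% interval -0.01 to 1.58), 0.73 for ICAM1 (0.01 to 1.44), 0.48 for BIRC3 (-0.15 to 1.10) and 0.47 for NFKBIA (-0.09 to 1.03), each with a limma adjusted p of 0.789. Among subunits RELB stood at 0.33, REL at 0.22, NFKB2 at 0.11, RELA at -0.02 and NFKB1 at -0.23. Thus 7 of the 10 were above 0, against 49.5% of all genes, and the median was 0.27 against -0.0043 for all genes. Only the inhibitor NFKBIE and the subunits RELA and NFKB1 were below 0.

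Control 3 decided whether this comparison made calls. Without it, limma called 0.635% of all genes higher with SKF-96365, and 2 members among them: TNFAIP3 rose by 1.25 (adjusted p = 0.0441) and ICAM1 by 1.16 (adjusted p = 0.0421) on the log2 scale, with NFKBIA at 0.79 (adjusted p = 0.0539). Without both control 3 and SKF-96365 1, 13.1% of all genes were called higher and 14.5% lower. Then ICAM1 stood at 1.38 (adjusted p = 0.000369), TNFAIP3 at 1.17 (adjusted p = 0.00877) and NFKBIA at 0.94 (adjusted p = 0.00226). NFKB1 was called lower at -0.60 (adjusted p = 0.00587). In that fit 2-APB against SKF-96365 had 6.61% of all genes lower, among them ICAM1 (-1.13, adjusted p = 0.000693), TNFAIP3 (-1.12, adjusted p = 0.0147) and NFKBIA (-0.72, adjusted p = 0.00893). These libraries were chosen for lying close to another group, so such p-values are too small. Control 3 lay at the SKF-96365 level for TNFAIP3, ICAM1 and NFKBIA, so leaving it out had to widen their differences from control. The calls are therefore no support for those differences. 2-APB 3, which by r also lay closer to another group, was kept. Why these libraries lie with another group was not tested.

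**Figure D3:**
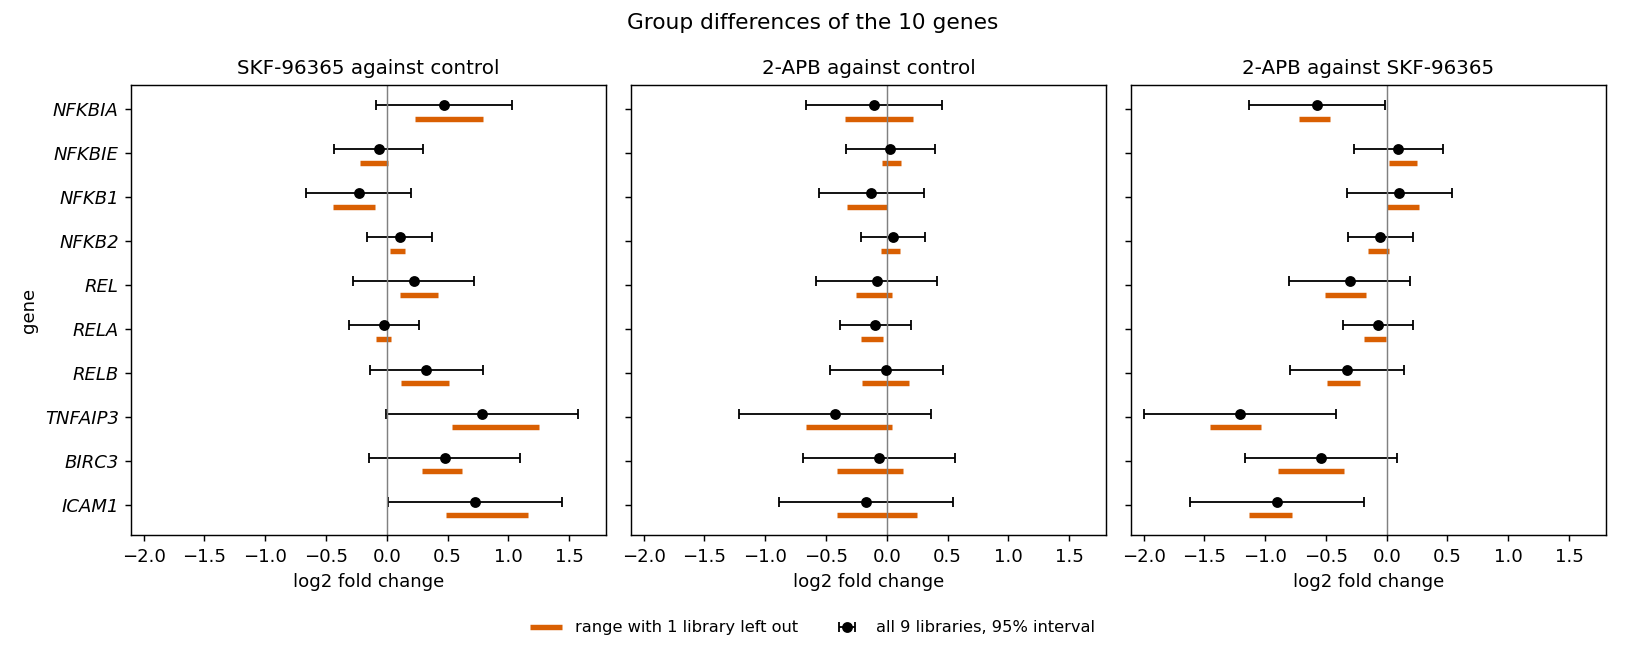
Log2 fold changes (horizontal axes) of the 10 genes (vertical axis) in the 3 comparisons; black points with bars are the estimates from all 9 libraries with 95% intervals, orange lines the range with 1 library left out. For 2-APB against SKF-96365 the left-out ranges of TNFAIP3 (-1.45 to -1.03), ICAM1 (-1.13 to -0.78) and NFKBIA (-0.72 to -0.47) stay below 0.

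The last pair, 2-APB against control, set the agonist against no named treatment, and no member stood out. TNFAIP3 averaged 162 ± 50.9 normalized counts with 2-APB and 237 ± 146 in control, ICAM1 392 ± 24.3 and 486 ± 273, NFKBIA 878 ± 76.6 and 993 ± 418, and BIRC3 2529 ± 1144 and 2513 ± 469.6 (SD, n = 3 each). limma called 0 of 10 members and 0% of all genes, and edgeR and DESeq2, fitted without SKF-96365 3, called 0. In limma 0 members had an unadjusted p under 0.05, where 2.8% of all genes did. The groups overlapped for all 10, and did not for 7.57% of all genes.

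The largest log2 fold change was -0.42 for TNFAIP3 (95% interval -1.22 to 0.37, limma adjusted p = 0.9995), followed by -0.17 for ICAM1 (-0.89 to 0.54), -0.13 for NFKB1 and -0.10 for NFKBIA. The other 6 lay between -0.09 for RELA and 0.05 for NFKB2, and 2 of 10 were above 0 against 49.7% of all genes. The median was -0.09, against -0.0016 for all genes. Control 3 set the sign of the brake and target genes: without it TNFAIP3 was at 0.04, ICAM1 at 0.25 and NFKBIA at 0.22, and 0 members and 0% of all genes were called. Both treatments were set against the same control libraries, so the contrasts with control are not independent of each other.

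Across the 3 groups at once, limma's F test had 2 members at an unadjusted p under 0.05, TNFAIP3 and ICAM1 (limma adjusted p = 0.862 for both), where 4.02% of all genes were so, and called 0 members and 0% of all genes. TRPV2, the channel gene itself, had 95.4, 102 and 137 normalized counts with 2-APB, 169, 209 and 188 with SKF-96365, and 112, 51.7 and 191 in control. Its SKF-96365 libraries and control 3 were the highest, as for TNFAIP3, and its log2 fold changes were -0.77 for 2-APB against SKF-96365, 0.85 for SKF-96365 against control and 0.09 for 2-APB against control, none called.

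The surrounding pathway was read from 4 lists, chosen for their role but with earlier results of these data known. Their counts describe these data and are not independent support for the members' differences. The lists were receptors and adaptors (18 of 20 tested), activating kinases (10 of 10), other inhibitors and brakes (15 of 15) and other responsive genes (21 of 28). limma called 0 genes of each list in every comparison. Without SKF-96365 3, edgeR called 0 and DESeq2 at most 2 of all genes. The responsive genes had the medians farthest from 0. For 2-APB against SKF-96365, 18 of 21 were below 0 with a median log2 fold change of -0.92, 9 were lower at an unadjusted p under 0.05 and 11 had groups that did not overlap with 2-APB lower, where 4.09% and 8.79% of all genes were so. For SKF-96365 against control, 18 of 21 were above 0 with a median of 0.67, against 49.5% of all genes above 0, and 3 were higher at an unadjusted p under 0.05, as were 2.06% of all genes. For 2-APB against control, 15 of 21 were below 0 with a median of -0.28, where 49.7% of all genes were above 0, and 2 were lower at that level, as were 1.43% of all genes.

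CXCL8, a neutrophil chemokine, and CXCL2, another, had the largest 2-APB against SKF-96365 differences by the naming rule. CXCL2 had 74.5, 80.7 and 302 normalized counts with 2-APB, 516, 475 and 508 with SKF-96365, and 307, 92.3 and 475 in control (log2 fold change for 2-APB against SKF-96365 of -2.02, 95% interval -3.38 to -0.67, limma adjusted p = 0.684). Every 2-APB library lay below every SKF-96365 library. CXCL8 ranged from 125 to 1361 with 2-APB, from 995 to 2828 with SKF-96365 and from 113 to 998 in control (log2 fold change for 2-APB against SKF-96365 of -2.25, limma adjusted p = 0.684), so its groups overlapped. The cytokine gene IL1B had 226, 278 and 709 with 2-APB, 1532, 893 and 971 with SKF-96365, and 538, 34.5 and 841 in control, and SKF-96365 lay above control in every library (log2 fold change 2.12, limma adjusted p = 0.789). CXCL3, named for 2-APB against control, had a log2 fold change of -0.72 there and averaged 29.3 ± 23.8 with 2-APB and 52.2 ± 38.8 in control (SD, n = 3 each).

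Medians of the other lists lay nearer to 0. For SKF-96365 against control the medians were 0.05 for receptors and adaptors, -0.05 for kinases and 0.02 for other inhibitors. For 2-APB against SKF-96365 they were -0.07, 0.06 and -0.06, and for 2-APB against control 0.04, -0.06 and -0.08, in the same order of lists. At an unadjusted p under 0.05 the receptors and adaptors had 1 higher and 1 lower, the kinases 2 lower and the inhibitors 2 higher for SKF-96365 against control, where 2.06% of all genes were higher and 1.94% lower. For 2-APB against SKF-96365 they had 2 higher and 1 lower, 2 higher, and 3 lower, where 3.21% of all genes were higher and 4.09% lower. For 2-APB against control they had 0 each, where 1.37% of all genes were higher and 1.43% lower.

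IKBKE, an inhibitor-kinase relative that also drives interferon signalling, had the smallest unadjusted limma p of the named genes of these lists. It had 179, 202 and 197 normalized counts with 2-APB, 161, 142 and 122 with SKF-96365, and 195, 252 and 258 in control. All SKF-96365 libraries were below all others, control 3 included. Its log2 fold change was -0.72 for SKF-96365 against control (95% interval -1.11 to -0.34, limma adjusted p = 0.789) and 0.45 for 2-APB against SKF-96365. MAP3K14, the kinase that starts the alternative route, stood at 1762 ± 50.2 with 2-APB and 1241 ± 278 with SKF-96365 (log2 fold change 0.53, limma adjusted p = 0.684; SD, n = 3 each), with groups that did not overlap. CHUK, a catalytic inhibitor-kinase subunit, stood at 658 ± 42.5 with 2-APB and 860.4 ± 259.8 in control (log2 fold change -0.34; SD, n = 3 each). IKBKG, the regulatory subunit, has a near-identical pseudogene copy that can share its reads, so its log2 fold changes of -0.59 for SKF-96365 and -0.44 for 2-APB against control are uncertain.

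Among other brakes, ZC3H12A, which encodes an RNase that degrades cytokine messages, had 124, 117 and 159 normalized counts with 2-APB, 212, 279 and 247 with SKF-96365, and 115, 92.3 and 256 in control. It followed NFKBIA and TNFAIP3 in having every 2-APB library below every SKF-96365 library and control 3 inside the SKF-96365 range (log2 fold changes of -0.88 for 2-APB against SKF-96365 and 0.81 for SKF-96365 against control, neither called). NFKBIZ, a nuclear inhibitor family member, averaged 792 ± 323 with 2-APB and 1279 ± 149 with SKF-96365 (log2 fold change -0.76, limma adjusted p = 0.684), and its groups overlapped. BCL3, another nuclear member, stood at 202 ± 24.4 with 2-APB, 208 ± 11.9 with SKF-96365 and 154 ± 48.0 in control, with log2 fold changes against control of 0.43 for 2-APB and 0.47 for SKF-96365. IL1R1, an interleukin receptor, averaged 281 ± 77.7 with SKF-96365 and 184 ± 114 in control (log2 fold change 0.73; SD, n = 3 each). The signalling adaptor gene TRAF1 averaged 122 ± 7.71 with SKF-96365 and 82.4 ± 11.05 in control (log2 fold change 0.57, limma adjusted p = 0.789), with groups that did not overlap. For 2-APB against SKF-96365 the log2 fold changes were -0.52 for IL1R1 and -0.57 for TRAF1. IRAK1, a receptor-associated kinase, averaged 4256 ± 897 with 2-APB and 5092 ± 1195 in control (log2 fold change -0.25; SD, n = 3 each), and IL1R1 had a log2 fold change of 0.21 there.

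**Figure D4:**
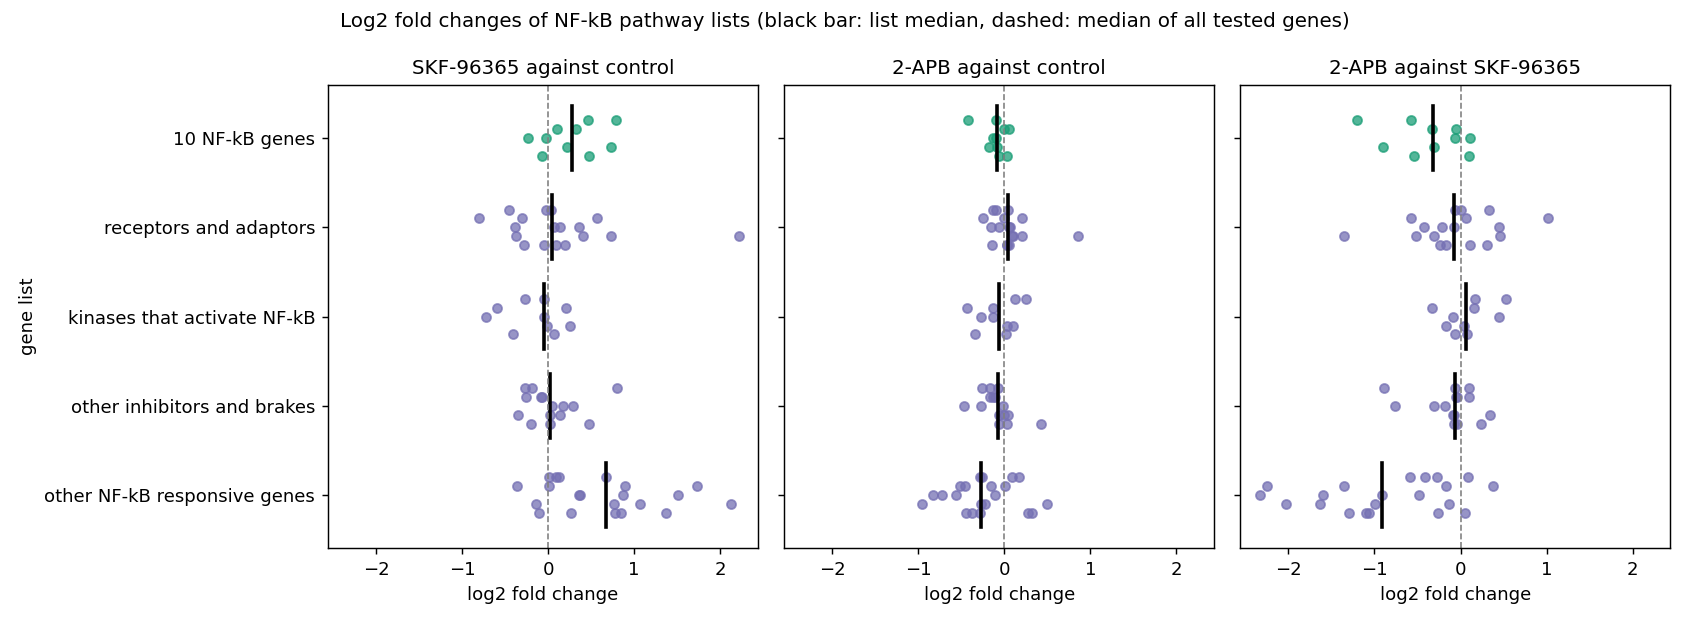
Log2 fold changes (horizontal axes, same scale) of the 10 genes and of 4 other lists of NF-kB pathway genes (vertical axis); points are tested genes, black bars list medians and the dashed line the median of all 17492 genes. The median of the responsive genes is 0.67 for SKF-96365 against control and -0.92 for 2-APB against SKF-96365, and the medians of the receptors, kinases and other inhibitors lie between -0.08 and 0.06 in all 3.

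For the 3 most variable members, the genes with the most similar profile were found among tested genes with a mean of at least 50, as the root mean square difference of mean-centred log2 values over the 9 libraries. BIRC3 was matched most closely by the hexokinase gene HK2 (0.0712), then by the collagen gene COL13A1 (0.116) and LINC01605 (0.128). HK2 had 1627, 1711 and 3341 normalized counts with 2-APB, 4141, 2721 and 2703 with SKF-96365, and 2368, 1749 and 2439.9 in control, high in SKF-96365 1 and 2-APB 3 as BIRC3 was. ICAM1 was matched by the transcription factor gene KLF11 (0.0810), ZNF333 (0.114) and ENSG00000280138 (0.134). The nearest to TNFAIP3 were the amine oxidase gene AOC3 (0.217), the histone gene H1-2 (0.231) and the early response gene IER3 (0.232). No gene was named for more than 1 of these members, whose own profiles differed: ICAM1 was highest in SKF-96365 2 and TNFAIP3 and BIRC3 in SKF-96365 1.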

How the data were processed

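RNA-seq was made from total RNA with a SMARTer kit, per the labels. The deposited values are a normalized signal: gene counts that the authors divided by DESeq2 size factors, per the submitters' processing notes. Aligner, counter, genome build, annotation and strand use are not given in the sources used here. Titles of 2-APB samples read ABP and their value columns TRPV2-1 and so on; they were mapped by the treatment label and the description.

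Values in all 9 libraries were whole multiples of 1 step. Reads of 8 libraries were recovered for counting intervals, edgeR 4.0.16 and DESeq2 1.42.0. SKF-96365 3 was left out of these because its step, 0.992, was judged too near 1, and its total is less certain. 2-APB 3, with a step of 0.986, was kept. 100% of values were whole within 0.001 reads. Without molecular identifiers PCR copies cannot be told from molecules, so intervals hold counting error alone.

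limma 3.58.1 (R 4.3.3) was fitted with a trend on log2(value + 1) to all 9 libraries and 17492 genes, with 2-sided contrasts, an F test and Benjamini-Hochberg adjustment; the script was tested on simulated data. Alternatives were other pseudocounts, filters, rescalings, a replicate block, only the groups compared, no trend, and libraries left out. Members, lists and libraries left out were chosen with earlier results of these data known. All members were named, and of each list the called genes and, per comparison, the 2 largest log2 fold changes at a mean of at least 50; profiles were matched for the 3 members with the largest SD. Symbols were matched for 60463 identifiers; coordinates and exon lengths of members come from GENCODE 29, promoters from RefSeq.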

Additional observations from a re-analysis of the deposited data

How the results depend on the processing

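The 10 genes had 0 calls in every comparison under pseudocounts of 0.5 and 5, no filter, a mean of at least 50, upper-quartile and quantile rescaling, no variance trend, only the groups compared, edgeR and DESeq2; no rescaling moved the median of all genes by over 0.1. With either rescaling, a mean of at least 50 or no trend, NFKBIA had no unadjusted limma p under 0.05 for 2-APB against SKF-96365. This left 2 members so, where 908 to 1338 of all genes were so. For SKF-96365 against control 0 members were so with quantile rescaling, that mean or no trend, against 423 to 703 of all genes. With no filter or the replicate block 2 were, against 1790 and 717 of all genes. The count of all genes called, 0 with all libraries, became 4 for 2-APB against SKF-96365 with only those groups in the fit, and with DESeq2 on 8 libraries 2 for SKF-96365 against control, 1 for 2-APB against SKF-96365 and 2 over the 3 groups. Leaving out 1 library gave 0 to 173 genes and 0 to 2 members for SKF-96365 against control, 0 to 4 genes for 2-APB against SKF-96365 and 0 to 5 over the 3 groups, each highest value without control 3 and 0 without any other. Without control 3 and SKF-96365 1, left out because of where their own values lay, these were 4823 genes and 4 members, 2283 and 3, and 3547 and 4. With the looser letters 13.5% of promoter windows matched, against 3.84% with the stricter.

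Same-numbered libraries' deviations from their group means correlated at 0.50, -0.19 and 0.37 for SKF-96365 with control. They correlated at -0.22, -0.03 and -0.27 for 2-APB with control, and at -0.29, 0.22 and -0.35 for 2-APB with SKF-96365. Different-numbered ones ran from -0.57 (SKF-96365 1 with control 3) to 0.48 (2-APB 3 with SKF-96365 1). Deviations within a group sum to 0, which ties these correlations together, so they cannot tell whether the replicate numbers pair the libraries. With the replicate block 0 genes and 0 members were called in each comparison.

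Signs of log2 fold changes turned as follows, none of them called, and the cause was not tested. RELA for SKF-96365 against control was 0.0079 with upper-quartile and 0.011 with quantile rescaling, 0.012 in edgeR and 0.0081 in DESeq2, and RELB for 2-APB against control 0.037 with upper-quartile rescaling. NFKBIE for SKF-96365 against control was 0.037 in edgeR and 0.034 in DESeq2, BIRC3 for 2-APB against control 0.011 and 0.012, NFKB1 for 2-APB against SKF-96365 -0.018 and -0.013, and NFKBIE there -0.0008 in edgeR. Without control 3 and SKF-96365 1, 2-APB against control gave NFKBIA 0.22, NFKBIE -0.0086, REL 0.027, RELB 0.18, TNFAIP3 0.043, BIRC3 0.076 and ICAM1 0.25, and NFKB2 for 2-APB against SKF-96365 0.023. With 1 library left out, SKF-96365 against control ran from -0.22 to 0.014 for NFKBIE and from -0.088 to 0.035 for RELA, and NFKB2 for 2-APB against SKF-96365 from -0.15 to 0.023. 2-APB against control then ran from -0.34 to 0.22 for NFKBIA, -0.039 to 0.12 for NFKBIE, -0.33 to 0.00043 for NFKB1, -0.046 to 0.11 for NFKB2, -0.25 to 0.047 for REL, -0.2 to 0.18 for RELB, -0.66 to 0.043 for TNFAIP3, -0.41 to 0.13 for BIRC3 and -0.41 to 0.25 for ICAM1. The fewest reads behind a member were 132 (TNFAIP3) and 153 (REL), where counting error alone is 8.70% and 8.08% of the value.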
